A study of Mus musculus with 7 samples.

Results

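The comparison set the miRNAs bound to Ago2 carrying a glutamine-to-alanine change (Q548A) against those bound to wild-type Ago2 in mouse embryonic stem cells. It used 2 of the 7 libraries of the series, chosen by their genotype labels, and every miRNA of the deposited count table. Both proteins carried a Flag tag and were produced in cells that lack endogenous Argonautes (Ago-null). Small RNAs were recovered with an anti-Flag antibody, prepared with the NEBNext small RNA kit and sequenced on an Illumina HiSeq instrument. The other libraries came from the same cell type and antibody and held Ago2 with K566A, R792A_C793A, GKT_GKGT or PGKTP_AAAAA, or, in the library titled empty, a control genotype. The sources used here do not say how each protein was introduced or whether its cells were 1 clone or a pool. Each group had 1 library, so no difference has a replicate check, and the intervals below cover counting error only. Reads copied in PCR are not independent molecules.

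Argonaute proteins receive a short RNA duplex cut from a miRNA hairpin and keep 1 of its strands, the guide, while the other, the passenger, is discarded. The 5p strand comes from the left arm of the hairpin and the 3p strand from the right arm. The MID domain of Argonaute, in which Q548 lies, holds the 5′ end of the guide and contacts its first base, and the choice of strand is known to follow the first base and the pairing strength of the duplex ends. In embryonic stem cells much of the bound miRNA comes from the miR-290 cluster, which acts on cell cycle regulators.

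The wild-type library held 94842507 counts and the Q548A library 94700428, with each mature miRNA counted once by its highest locus. Values are CPM, the count divided by this total and multiplied by 1000000. Of 950 miRNAs, 337 averaged at least 10 CPM over the 6 Ago2 libraries and were tested, and 402 hairpins had at least 100 counts on their arms. A miRNA was called when the exact 95% interval of its CPM ratio lay wholly past 2-fold, and a hairpin when the interval of the odds of its less used (minor) to its more used (major) arm did. The cell type label was checked on the miR-290 cluster, the defining stem cell marker, whose 13 tested members summed to 777885 CPM in wild type and 775345 CPM in Q548A. Of the 11 muscle and liver markers in the table, 0 reached the level for testing. The empty control held 33461 counts, so that 3 counts there equal 89.7 CPM, against 0.0316 CPM in wild type and 0.0317 CPM in Q548A.

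The strands of 6 hairpins are shown as examples, picked from those called toward their U-first arm. In each, 1 arm begins with U and the other with A, C or G, and the U-first arm took a larger share in Q548A. Sequences are RefSeq mature miRNAs (GRCm38.p6), 5′ to 3′, with the seed, bases 2 to 8, in capitals. The first base is the letter before the capitals. Hairpins with a C-first partner come first, then A-first, then G-first.
miR-106b-5p: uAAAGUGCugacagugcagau
miR-106b-3p: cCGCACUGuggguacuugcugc
miR-673-3p: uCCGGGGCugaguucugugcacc
miR-673-5p: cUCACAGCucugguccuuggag
miR-423-5p: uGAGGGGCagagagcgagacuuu
miR-423-3p: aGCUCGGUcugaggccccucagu
miR-18a-5p: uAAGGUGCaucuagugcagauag
miR-18a-3p: aCUGCCCUaagugcuccuucug
miR-877-3p: uGUCCUCUucucccuccuccca
miR-877-5p: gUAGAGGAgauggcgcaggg
miR-330-5p: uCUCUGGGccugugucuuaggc
miR-330-3p: gCAAAGCAcagggccugcagaga

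The miRNA content of the 2 libraries differed little for most miRNAs. Of the 337 tested, 252 (74.8%) lay within 1.5-fold and 311 within 2-fold, and the median absolute log2 ratio was 0.31. Spearman's rho across the tested miRNAs between the 2 libraries was 0.97, a description over miRNAs that share 2 libraries. The same measure against wild type was 0.72 for K566A, 0.93 for R792A_C793A, 0.91 for GKT_GKGT and 0.86 for PGKTP_AAAAA. The interval rule called 6 miRNAs higher in Q548A (1.78% of those tested) and 15 lower (4.45%), 21 in all (6.23%).

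**Figure D1:**
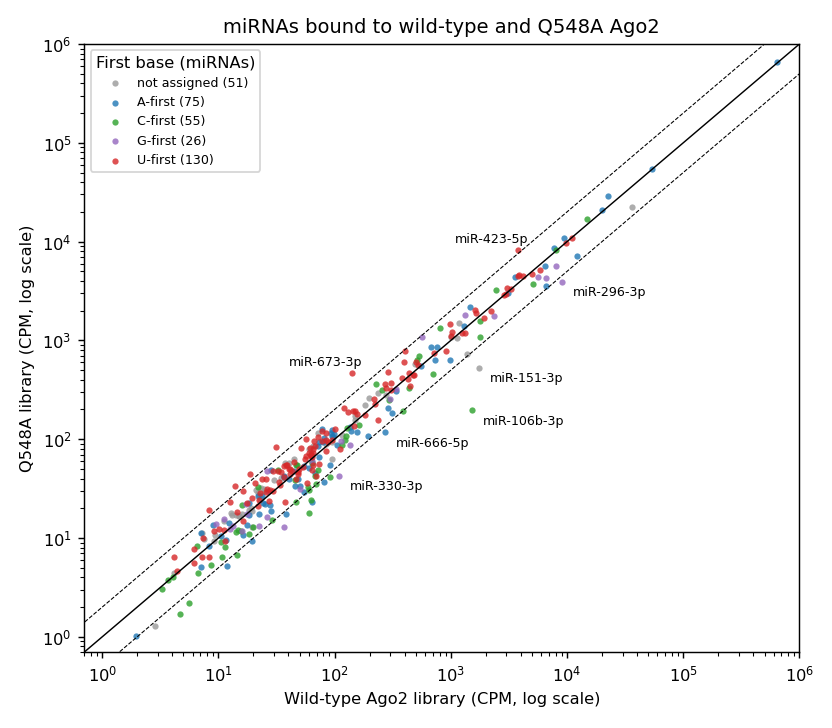
CPM of each of the 337 tested miRNAs in the wild-type library (x axis) and the Q548A library (y axis), both on log scales, coloured by first base; the solid line marks equal CPM and the dashed lines a 2-fold difference. Most points lie between the dashed lines, miR-673-3p and miR-423-5p above them and miR-106b-3p and miR-151-3p below.

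All 6 miRNAs called higher begin with U. miR-673-3p, from an intergenic hairpin of the imprinted Dlk1-Dio3 region (mm9 chr12:110810254-110810276), went from 140.0 CPM in wild type to 462 CPM in Q548A, a log2 ratio of 1.72 (95% interval 1.70 to 1.75). miR-423-5p, encoded in an intron of Nsrp1 (mm9 chr11:76891624-76891646), went from 3780 to 8126 CPM, a log2 ratio of 1.10 (1.10 to 1.11). With median-of-ratios scaling over the 6 Ago2 libraries its log2 ratio was 1.01, with an interval no longer wholly past 2-fold, and the call was lost. These were the rises among miRNAs averaging at least 100 CPM.

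The other 4 risers were less abundant and are named after their values were seen. miR-433-5p, from the Dlk1-Dio3 region opposite an Rtl1 exon, went from 31.3 to 82.7 CPM. miR-335-5p, from an intron of the imprinted gene Mest, went from 13.8 to 33.6 CPM, and miR-154-5p from 18.7 to 44.0 CPM. miR-142-3p, known for its abundance in blood cells, went from 8.32 to 19.4 CPM. No tested miRNA that begins with A, C or G, and none without an assigned first base, was called higher.

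The miRNAs called lower were headed by miR-106b-3p, the C-first strand of a hairpin in an intron of Mcm7 (mm9 chr5:138606974-138606995). It had 1507 CPM in wild type and 195.3 CPM in Q548A, a 7.72-fold fall (log2 ratio -2.95, interval -2.97 to -2.93). Its U-first partner miR-106b-5p had 61.2 and 81.6 CPM and was not called. Its cluster neighbour miR-93-5p had 528 CPM in wild type and 691 CPM in Q548A. Of these 3 miRNAs, miR-106b-3p alone was called.

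The other abundant miRNAs called lower numbered 4. miR-151-3p, from an intron of Ptk2 and without an assigned first base, fell from 1734 to 526 CPM (log2 ratio -1.72). The G-first miR-296-3p, from an intergenic hairpin, fell from 9109 to 3941 CPM (log2 ratio -1.21). The A-first miR-666-5p, in the Dlk1-Dio3 region, fell from 273 to 118 CPM (-1.21). The C-first miR-196a-1-3p, whose partner strand is the Hox-linked miR-196a-5p, fell from 91.4 to 41.6 CPM (-1.14).

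The other 10 that fell are named after their values were seen. Their wild-type levels ran from 4.70 CPM for miR-744-3p to 110 CPM for miR-330-3p. The C-first ones were miR-700-3p (60.3 to 17.99 CPM), miR-15b-3p (62.8 to 23.97 CPM), miR-574-3p (5.58 to 2.21 CPM) and miR-744-3p (4.70 to 1.70 CPM). The A-first ones were miR-380-5p (64.2 to 23.3 CPM), miR-18a-3p (81.3 to 36.8 CPM), miR-125a-3p (38.3 to 17.3 CPM) and miR-342-5p (11.8 to 5.15 CPM). The G-first ones were miR-877-5p (36.6 to 12.97 CPM) and miR-330-3p (110 to 42.7 CPM). Among all 15, 6 begin with C, 5 with A, 3 with G and 0 with U. miR-574-3p, miR-744-3p and miR-342-5p averaged below 10 CPM over the 2 libraries compared and were tested through their levels in other Ago2 libraries. With the filter on the 2 libraries alone, 12 miRNAs rather than 15 were called lower.

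The first base could be assigned for 286 of the 337 tested miRNAs, and 51 had none. The 130 U-first miRNAs had a median log2 ratio of 0.18, with 93 above 0, against 0.07 for all tested miRNAs. With median-of-ratios scaling over the 6 Ago2 libraries, which lowers every log2 ratio alike by 0.10, the U-first median was 0.079. The median was -0.05 for the 75 A-first, -0.34 for the 55 C-first and -0.23 for the 26 G-first miRNAs. The 51 without an assigned base had a median of 0.20. The U-first class thus held 6 calls up and 0 down, and the other 3 classes together 0 up and 14 down. With a 1.5-fold limit the split was less sharp: 18 U-first miRNAs were called higher and 3 lower, against 2 and 13 of the A-first, 2 and 17 of the C-first and 2 and 7 of the G-first.

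**Figure D2:**
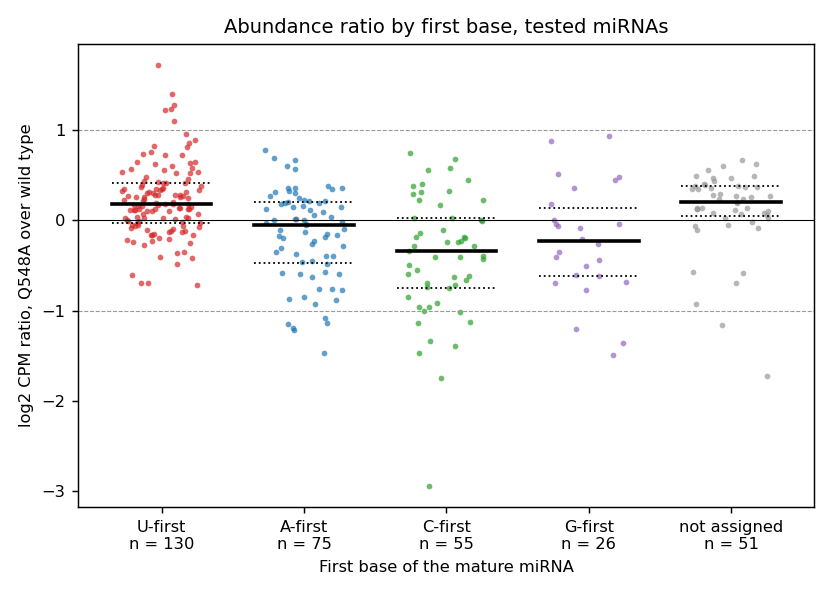
Log2 CPM ratio of Q548A over wild type (y axis) for each tested miRNA, grouped by its first base (x axis); thick lines are medians, dotted lines quartiles and dashed lines a 2-fold difference. The U-first median is 0.18 and the C-first median -0.34, and no A-, C- or G-first point lies above the upper dashed line.

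Summed over miRNAs, the shift was small, since a few miRNAs hold most counts. U-first miRNAs made up 8.51% of all counts in wild type and 9.35% in Q548A, and G-first ones 3.48% and 2.40%. A-first miRNAs held 79.3% and 81.0%, mostly through miR-292-5p, which took 63.7% of counts in wild type and 65.3% in Q548A.

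Arm use within a hairpin is a ratio inside a library, so library size cancels. The 95% interval of the odds ratio lay past 2-fold for 37 of 402 hairpins (9.2%). The minor arm, named from the counts summed over the 6 Ago2 libraries, gained in 15 (3.73%) and lost in 22 (5.47%). Over all hairpins, log2(minor/major) changed by a median of -0.22 (quartiles -0.84 and 0.44), with 248 hairpins below 0 and 154 above.

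The 161 hairpins with 1 U-first arm and 1 A-, C- or G-first arm moved mostly one way. Of these, 23 were called (14.3%), and all 23 toward the U-first arm. Of the 144 hairpins of other kinds with both bases assigned, 11 were called (7.64%). The U-first arm became the more used arm in 14 of the 161, and in 0 did it stop being so.

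In miR-106b the U-first arm went from a 3.91% share in wild type to 29.5% in Q548A, a log2 odds change of 3.36 (3.31 to 3.42). In miR-423 the U-first 5p arm rose from 36.6% to 69.5%, a log2 odds change of 1.98 (1.98 to 1.99). In miR-673 the U-first 3p arm rose from 32.2% to 65.0%, a log2 odds change of 1.96 (1.93 to 2.002). The major arm therefore switched in miR-423 and miR-673 but not in miR-106b.

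Against an A-first partner, the U-first arm of miR-18a, a miR-17-92 hairpin, rose from 48.9% to 76.6%. That of miR-380 rose from 49.5% to 74.8%, and that of miR-872, in an intron of Ift74, from 70.6% to 85.9%. miR-1934 and miR-125b-1 went the same way, from 88.5% to 95.4% and from 78.7% to 90.3%.

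Against a G-first partner, the U-first arm of miR-877, a mirtron-type hairpin in Abcf1, rose from 79.7% to 93.7%. The U-first arm of miR-330, within Eml2, rose from 36.8% to 60.4%. miR-148b rose from 92.4% to 96.5% and miR-3068 from 63.2% to 80.8%.

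Against a C-first partner, miR-15b, in an intron of Smc4, rose from 31.9% to 55.7% and its relative miR-195 from 2.49% to 7.69%. These hairpins yield miRNAs known to restrain the cell cycle. miR-142 rose from 52.8% to 84.0%, miR-700 from 20.5% to 47.7% and miR-196a-1 from 40.4% to 62.8%. Among miR-30 hairpins, miR-30e rose from 41.0% to 60.3% and miR-30a from 57.3% to 74.5%. The rest of the 23 were miR-7a-1 (99.6% to 99.9%), let-7b (87.7% to 96.7%), miR-542 (83.3% to 95.5%) and miR-325, which gained 38.1 percentage points to reach 58.1%. The 95% Wilson intervals of these shares were at most 3.43 percentage points wide in called hairpins with 10000 or more counts over the 6 Ago2 libraries, and up to 13.2 points, for miR-325, in the others. The U-first arms of miR-7a-1, miR-196a-1 and miR-125b-1 are shared with another copy, so their shares are not those of 1 hairpin alone. In miR-7a-2, with the same U-first arm as miR-7a-1, the log2 odds change was 0.36 (0.02 to 0.70), without a call. Of the 402 tested hairpins, 61 share an arm in this way.

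**Figure D3:**
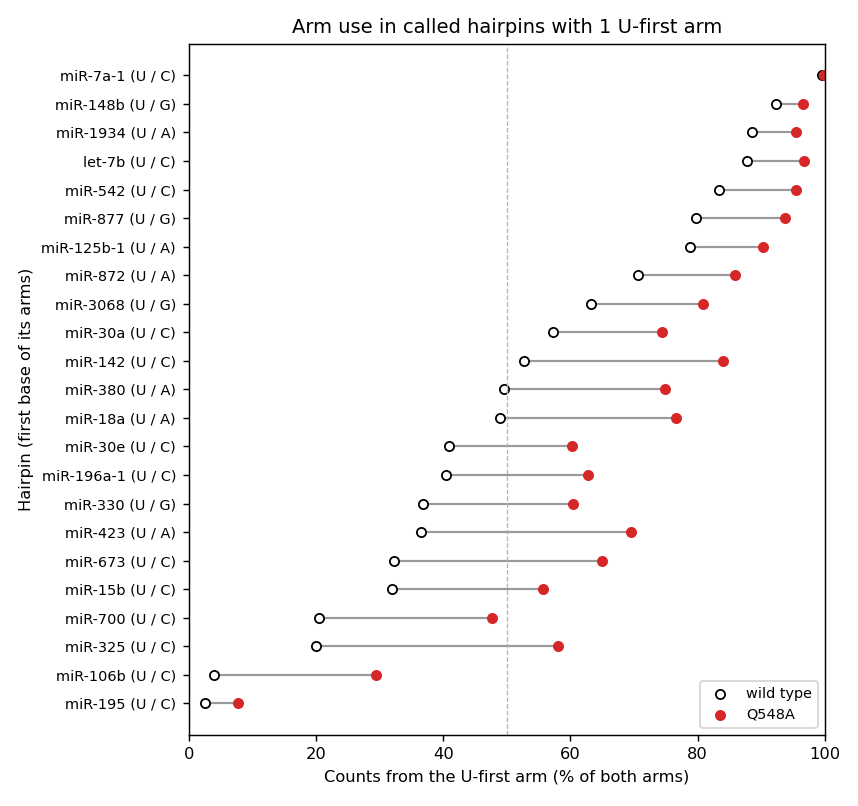
Percent of a hairpin's counts that came from its U-first arm (x axis) in wild type (open points) and Q548A (filled points), for the 23 called hairpins with 1 U-first arm (y axis, first base of the U arm and its partner in brackets). Every filled point lies to the right of its open point, and those of miR-423, miR-673 and miR-18a cross the dashed line of equal arms.

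The called hairpins were the upper end of a shift that ran through the class. The log2 ratio of the U-first to the other arm, with 0.5 added to each count, changed by a median of 0.72 over the 161 hairpins. It was 0.77 over 63 with an A-first partner, 0.64 over 63 with a C-first and 0.82 over 35 with a G-first partner. In the hairpins with more than 3 counts on both arms in at least 1 of the 2 libraries, the median was 0.79 (quartiles 0.15 and 1.26), with 111 above 0 and 30 below. In the 71 hairpins with at least 100 counts on both arms in each library it was 0.82, with 61 above 0.

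Hairpins that were not of the U-against-other class gave smaller or opposite medians in the set with more than 3 counts. C-first over A-first changed by 0.10 (27 hairpins; -0.03 over all tested hairpins of that kind) and G-first over A-first by -0.29 (13 hairpins). G-first over C-first changed by 0.70, over 12 hairpins of which 8 lay above 0. That is close to the 0.73 of U-first over C-first arms in the same set. Where both arms begin with the same base, pairs of U-first arms included, 5p over 3p changed by 0.09 (64 hairpins). This last median takes its sign from the arm and not from a base. Changes in opposite directions offset each other in it, so its size cannot be set against the others.

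Among the most abundant hairpins with a U-first arm, several changed without a call. In miR-433 the U-first 5p arm held 0.139% in wild type and 0.285% in Q548A, a log2 change of 1.04 with an interval from 0.98. In miR-744, in an intron of Map2k4, it was 99.92% and 99.97% (1.26, interval from 0.998). In miR-92b, a seed relative of miR-92a, the U-first share was 79.3% and 87.7% (0.89). In miR-148a it was 96.3% and 97.8% (0.77), and in miR-127, an abundant imprinted miRNA, 99.9% in both (0.68). In miR-434 the U-first arm had 41.0% and 53.5% (0.72), so that the more used arm changed without a call.

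Some U-first arms did not gain. The log2 change was -0.36 in miR-183, -0.31 in miR-182 and -0.30 in miR-26a-2, hairpins in which the U-first arm held more than 99.5% of counts in both libraries. In miR-494 the U-first share was 75.2% in wild type and 66.2% in Q548A (-0.63). None of these 4 reached a call, and miR-494 is named after its values were seen.

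The called hairpins outside the U-against-other class were 14, of which 11 had both bases assigned. In miR-296 the A-first 5p arm rose from 5.70% to 12.4% over its G-first partner. In miR-99b, whose arms both begin with C, the 5p arm rose from 97.4% to 98.9%, and in miR-1981, a G and C pair, from 99.4% to 99.8%. In miR-25, of the miR-106b cluster, the A-first 5p arm fell from 3.58% to 1.63% beside its C-first partner. In miR-1188, with U on both arms, the 5p arm fell from 70.8% to 47.4%. In miR-679, a G and A pair, the G-first 5p arm rose from 19.5% to 35.6%. The others were miR-3067, miR-1843b, miR-1933, miR-3097 and miR-101a, in which the minor arm had 10 counts in wild type and 0 in Q548A. Of the 3 without both bases, miR-151 had the largest change, its 5p arm going from 1.95% to 7.16%.

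GC content moved with the abundance ratio as well. Across the 286 miRNAs with a sequence, Spearman's rho between the log2 ratio and GC percent was -0.46. It was -0.38 among the U-first and -0.42 among the others, descriptions over miRNAs of the same 2 libraries. With GC up to 45.5%, the U-first median was 0.31 (72 miRNAs) and that of the others 0.06 (47). With GC from 45.5% to 54.5% they were 0.14 (29) and -0.11 (60), and above 54.5% they were -0.05 (29) and -0.59 (49). The U-first median was the higher in all 3 GC classes.

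**Figure D4:**
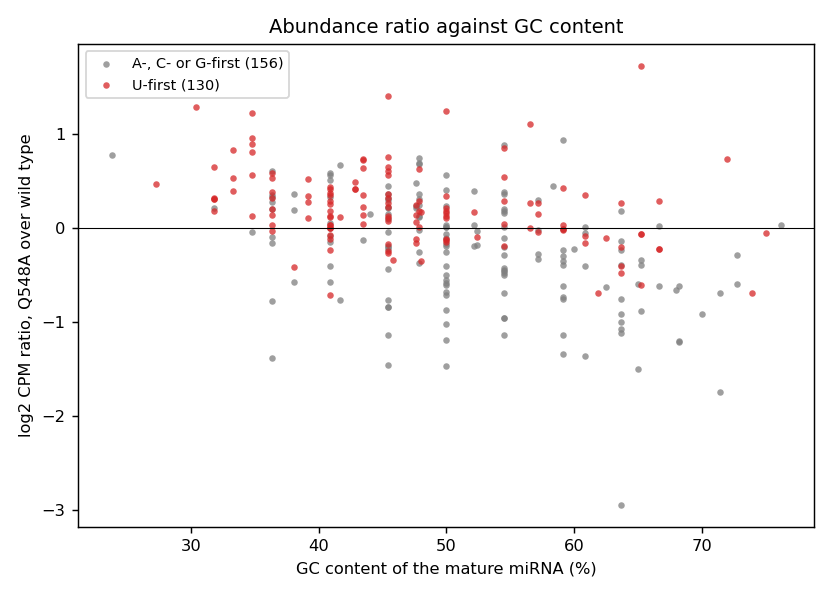
Log2 CPM ratio of Q548A over wild type (y axis) against the GC content of the mature miRNA in percent (x axis), for the 130 U-first miRNAs and the 156 that begin with A, C or G. The ratio is lower at high GC in both sets, with a rho of -0.38 among the U-first and -0.42 among the others.

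Within hairpins the same could be read with the library size removed. Where the U-first arm was the lower in GC, its log2 ratio to the other arm changed by a median of 0.80 (95 hairpins, 75 above 0). Where it was equal or higher in GC, the median was 0.69 (46 hairpins, 36 above 0). In hairpins with no U-first arm, the lower-GC arm changed by 0.20 relative to the higher-GC arm (76 hairpins), and with U on both arms by 0.33 (26 hairpins). The median change of U-first arms was above 0 on either side of the GC difference. The parts of GC content and of pairing strength at the duplex ends in this change were not tested.

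The gain was seen whether the U-first arm was the more used or the less used one. The median change was 0.69 where the U-first arm was the major arm (80 hairpins above 0, 26 below) and 0.86 where it was the minor arm (31 above 0, 4 below). Hairpins outside the Dlk1-Dio3 cluster gave 0.79 (122), and those sharing no arm sequence with another copy 0.85 (112).

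In their medians over the same hairpins, those with more than 3 counts on both arms, the other Ago2 mutants did not share this direction. Most of the 23 called hairpins nonetheless had a higher U-first share than wild type in K566A, and most did in R792A_C793A. Each mutant was set against the same wild-type library. The median change of U-first over other arms was -0.04 in K566A (69 hairpins above 0, 72 below), -0.23 in R792A_C793A (59 and 81), -1.23 in GKT_GKGT (35 and the rest) and -0.09 in PGKTP_AAAAA (62 and 78). Set directly against the mutants with 1 or 2 substituted residues outside the loop, Q548A had more U-first arm by a median log2 of 0.81 relative to K566A (91 above 0, 50 below) and 0.69 relative to R792A_C793A (102 above 0, 39 below). In abundance, some other mutants went as far as Q548A or further. Relative to all tested, the U-first median was 0.11 in Q548A, 0.63 in K566A, 0.03 in R792A_C793A, -0.11 in GKT_GKGT and 0.18 in PGKTP_AAAAA. In the same sequence, the G-first values were -0.30, -1.72, -0.55, 0.40 and -1.11, and the C-first ones -0.41, -0.02, 0.04, 1.15 and 0.76. With GC above 54.5% they were -0.35, -1.28, -0.54, 0.29 and -0.09. These are medians of single libraries without a test.

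**Figure D5:**
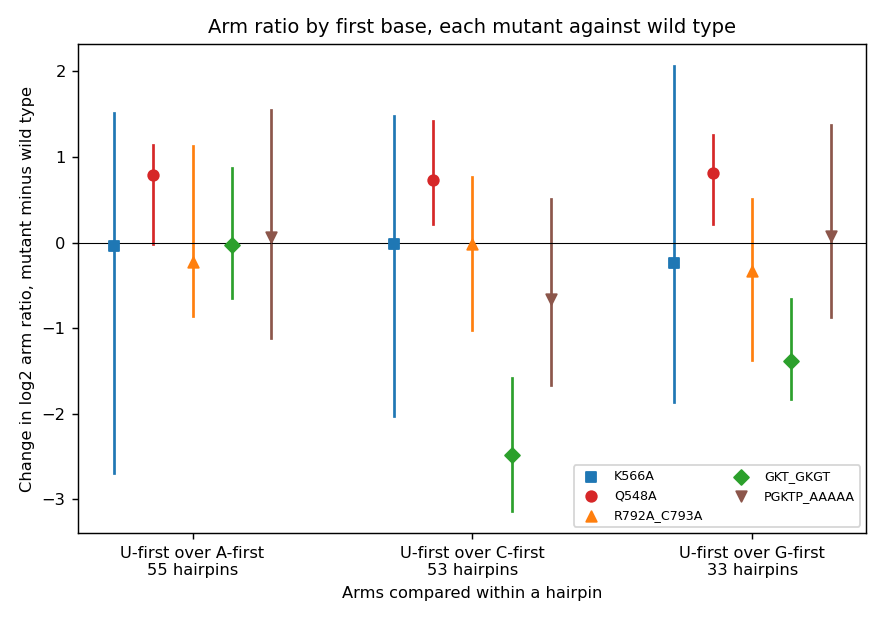
Median change in the log2 ratio of the U-first to the A-, C- or G-first arm (y axis) in each mutant library against wild type, by the partner's first base (x axis); bars run from the lower to the upper quartile over hairpins with more than 3 counts on both arms. The Q548A medians are 0.79, 0.73 and 0.82, above those of the other 4 mutants in each class.

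Single hairpins did not always follow the order of the arm medians. The U-first share of miR-423 was 36.6% in wild type, 69.5% in Q548A, 87.2% in K566A and 81.6% in R792A_C793A. That of miR-106b was 3.91%, 29.5%, 12.7% and 24.01%, and that of miR-673 was 32.2%, 65.0%, 9.70% and 33.8%. The share of miR-423 was thus higher in every one of these mutants than in wild type, whereas only Q548A among them held most of miR-673 on its U-first arm. In GKT_GKGT and PGKTP_AAAAA the share was 58.1% and 63.5% for miR-423, 0.355% and 3.68% for miR-106b, and 20.5% and 9.34% for miR-673. That of miR-18a was 48.9% in wild type, 76.6% in Q548A and from 68.8% to 90.4% in the other mutants. For miR-125b-1 it was 78.7% in wild type and from 86.5% to 91.6% in the mutants. For miR-877 it was 93.7% in Q548A, 99.8% in K566A, 97.5% in R792A_C793A, 71.3% in GKT_GKGT and 98.4% in PGKTP_AAAAA. miR-106b-3p had 1470 CPM in K566A and 329 CPM in R792A_C793A, beside 1507 in wild type and 195.3 in Q548A.

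Among miRNAs that share a seed but differ in their first base, the U-first ones were not generally the higher. Sequences are shown for 2 seeds known from stem cell miRNA clusters, as RefSeq mature miRNAs with the seed in capitals.
miR-17-5p: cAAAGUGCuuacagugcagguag
miR-93-5p: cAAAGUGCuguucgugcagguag
miR-20a-5p: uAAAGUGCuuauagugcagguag
miR-302b-3p: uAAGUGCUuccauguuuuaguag
miR-294-3p: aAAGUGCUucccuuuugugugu
miR-291a-3p: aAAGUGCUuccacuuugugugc
Of 5 seeds held by both kinds, the U-first median was above the other in 1. For AAAGUGC, the U-first miR-20a-5p (log2 ratio 0.28) and miR-106b-5p (0.41) had a median of 0.34, against 0.53 for the C-first miR-17-5p (0.31), miR-93-5p (0.39), miR-106a-5p (0.68) and miR-20b-5p (0.75). For AAGUGCU, the U-first miR-302d-3p (0.34) and miR-302b-3p (0.96) gave a median of 0.65, against -0.04 for the A-first miR-291a-3p (-0.20), miR-294-3p (0.06) and miR-295-3p (-0.04). None of these 11 was called.

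The miR-290 cluster, the main guide pool of these cells, had 0 of 13 members called and a median log2 ratio of -0.17. Of its 4 most abundant members, 3 were close between libraries: miR-292-5p (log2 ratio 0.04), miR-293-3p (0.01) and miR-294-3p (0.06). The remaining one, miR-292-3p, had 35894 CPM in wild type and 22232 CPM in Q548A (-0.69). In 6 of the 7 hairpins of the cluster the less used arm lost relative to its partner, in none by enough for a call. Among those arms, miR-293-5p had 12283 and 7179 CPM (-0.77) and miR-294-5p 309 and 182.01 CPM (-0.77). miR-295-5p was the lowest member (-0.88) and miR-291b-5p the highest (0.94). In miR-293, whose arms both begin with A, the 5p share was 18.6% in wild type and 11.7% in Q548A.

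Calls within families are counts out of the members tested, beside 6.23% over all tested miRNAs, and no family was tested against the rest. miR-17-92 with its paralogs, which promote proliferation, had 24 tested members, 0 called higher and 2 lower (miR-106b-3p and miR-18a-3p), with a median log2 ratio of 0.29. let-7 with miR-98, the differentiation-linked family, had 0 of 9 called and a median of 0.07, from let-7e-5p at -0.72 to let-7d-5p at 0.33. miR-15/16 had 1 of 6 called lower (miR-15b-3p) and a median of -0.23. The miR-302 cluster had 0 of 3 called, with all 3 above 0 and a median of 0.47.

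The cluster of miR-183, miR-96 and miR-182 had 0 of 5 called and a median of 0.17, miR-30 0 of 10 and 0.03, and miR-200, known from epithelial cells, 0 of 6 and -0.08. The imprinted Dlk1-Dio3 cluster had 64 tested members, 3 called higher (miR-673-3p, miR-433-5p and miR-154-5p) and 2 lower (miR-380-5p and miR-666-5p), with a median of 0.01. The medians of let-7, miR-30 and the Dlk1-Dio3 cluster lay below 0 with the 6-library scaling. All 14 tested miRNAs of the Sfmbt2 cluster lay above 0, from 0.14 to 0.67 with a median of 0.37, and 0 were called. Of 7 tested noncanonical miRNAs, which bypass part of the usual processing, 1 was called, miR-877-5p.

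Markers of other cell types were few and changed little in sum. The 8 tested fibroblast or mesenchymal markers summed to 1280 CPM in wild type and 1337 CPM in Q548A, the 4 neural ones to 4027 and 4790 CPM and the 5 endothelial or blood ones to 677 and 799 CPM. Of these, miR-142-3p was called higher and miR-196a-1-3p lower.

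The empty control stood closer to Q548A than to wild type in several of these values. Of 42 miRNAs with at least 50 counts there, 29 were closer in CPM to Q548A and 13 to wild type. The median absolute log2 difference from it was 0.19 for Q548A and 0.23 for wild type, and 0.54 or more for the other 4 Ago2 libraries. In miR-423 its U-first share was 77.0% (Wilson interval 71.4 to 81.8, 252 counts), against 36.6% in wild type and 69.5% in Q548A. That interval leaves out the Q548A share and holds the share of R792A_C793A (81.6%). miR-423 was the only called hairpin of the U-against-other class with at least 50 counts on both arms in the empty control. miR-292-3p had 23221 CPM there and miR-673-3p 418 CPM, both near the Q548A values, from 777 and 14 counts. miR-106b-3p had 448 CPM from 15 counts, between the 2 libraries. miR-877-5p had 0 of 33461 counts, which allows up to 89.7 CPM. The part of background, or of carry-over between libraries, in these values and in the differences between Q548A and wild type was not tested.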

How the data were processed

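The deposited file is 1 table of raw read counts per mature miRNA locus that the authors made for 7 libraries of small RNAs from anti-Flag immunoprecipitates. Named per the submitters' processing notes are TopHat2 2.0.9, CASAVA 1.8.2 and build mm9. The counter, the annotation release and the handling of multiple matches were not stated in the sources used here, which leaves near-identical copies uncertain. Of 64 names with several loci and counts, 55 had equal counts at each (within 1% or 3 counts), and a name was counted once by its highest locus. Of 1078 loci, 116 were at 0 in every library.

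CPM used the total count with each name once. Ratios have exact conditional 95% intervals (Clopper-Pearson), and arm odds ratios have exact conditional intervals, or Woolf's where all 4 counts reached 500. Shares have Wilson intervals. The arm ratio had 0.5 added to each count. Arms lay within 150 nt of each other. No p-value was computed. First bases, GC and seeds came from the RefSeq mature table (GRCm38.p6), matched by exact name for 273 tested miRNAs and by synonym for 13; sequences of another length or on a chromosome not printed were left out for 4. Spacing of arm starts was the same as in that table in 302 of 304 hairpins. Host genes came from GENCODE by gene name; coordinates are those of the deposited table.

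Named miRNAs were the largest called changes averaging at least 100 CPM, the most abundant miRNAs, the most counted hairpins by first base, the largest called hairpins, and the leading and extreme family members; others are said to be named after their values were seen. The members and lists were chosen with earlier results of these data known. Python 3.11.15, numpy 2.4.6, scipy 1.17.1 and pandas 2.3.3 were used, and the calls were tested on simulated counts. Alternatives were scaling, filter, fold limit, summed loci, hairpin minimum and pseudocount.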

Additional observations from a re-analysis of the deposited data

How the results depend on the processing

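Of 290 alternative values, 248 were classed as the same as the reported value, 41 as moved, and 1 lost its call. These classes followed the size of a change and not its direction alone. With median-of-ratios scaling over the 6 Ago2 libraries, 20 miRNAs called lower rather than 15 was classed as the same. The U-first median of 0.079 rather than 0.18 kept its direction and was classed as moved. No called value changed direction, and of the values without a call 19 changed sign, 13 of them medians. The counts of called miRNAs depended on filter and limit: the count of those higher was 2 with a mean of at least 100 CPM and 25 with a 1.5-fold limit, and the count of those lower was 5, 44 and, with no filter (818 miRNAs), 31. Hairpin calls with a 1.5-fold limit were 37 with the minor arm higher and 67 lower. Median-of-ratios scaling over the 625 miRNAs counted in all 6 Ago2 libraries, chosen after seeing the data, gave a U-first median of 0.079 and a miR-34 median of 0.089, from 0.18 and 0.19, and brought miR-423-5p to a log2 ratio of 1.01, with an interval no longer wholly past 2-fold; 20 of the 21 calls remained. The same scaling put the medians of let-7 (-0.025), miR-30 (-0.067) and Dlk1-Dio3 (-0.085) below 0; with scaling over both libraries the last was -0.0011. With the most abundant miRNA left out of the total, 19 of the 21 calls remained, and 3 A-first miRNAs rather than 5 were called lower. Under the filter at 100 CPM, medians of the A-first (0.015), noncanonical (0.42, 3 miRNAs), miR-10 with miR-196 (-0.48, 2 miRNAs) and fibroblast (-0.14, 4 miRNAs) lists changed sign. C-first over A-first arms changed from -0.03 to 0.10 with more than 3 counts (also without shared or overlapping arms), 0.029 outside Dlk1-Dio3 and 0.12 with at least 100 counts. Scaling shifted the median of all miRNAs by at most 0.10 (log2). The median change of U-first over other arms was from 0.64 (pseudocount 5) to 0.85 (no shared arm, more than 3 counts) over its alternatives; subsets by counts, shared arms, cluster and overlap were chosen after seeing the data. No paired analysis was possible because each group had 1 library. Depth limits the empty control most, where 50 counts or more were reached by 42 miRNAs.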
